A study of Mus musculus with 6 samples.

Results

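The genes described here are 10 markers of migrating neural crest cells and of the glial and pigment precursors that come from them: Sox10, Erbb3, Ednrb, Cdh19, Fabp7, Ets1, Snai1, Snai2, Mitf and Kit. They were chosen by name, and all 10 were measured by a probe set with 1 gene symbol, out of 19938 genes. Mitf had a second, dimmer probe set, and each of the others had 1. The values are log2 expression levels from mandibular arches of C57BL/6 mouse embryos at embryonic day 9.5 (E9.5), hybridised to Affymetrix Mouse Gene ST 1.0 arrays. Wild-type embryos (Tbx1+/+) gave 3 arrays and embryos lacking the T-box transcription factor gene Tbx1 (Tbx1-/-, Tbx1 null) gave 3. Arches from 3 embryos of each genotype were pooled to reach enough RNA, and whether every array had its own pool is not stated. The labels name no other allele or treatment, and do not say how the null allele was made.

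Neural crest cells leave the dorsal neural tube, lose their epithelial contacts and move into the pharyngeal arches. Most of those that enter the mandibular arch become mesenchyme, the precursor of jaw skeleton and connective tissue, and switch off early crest genes such as Sox10. Cells that keep Sox10 include the precursors of the glia that accompany cranial nerves and of pigment cells. In RNA from whole arches fewer cells of a type and less RNA per cell cannot be told apart.

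None of the 10 genes passed the test between the genotypes. By limma, with Benjamini-Hochberg adjustment over all genes, 0 of 10 had an adjusted p under 0.05, where 0.16% of all genes did (32 genes: 15 lower, 0.0752%, and 17 higher, 0.0853%). At an unadjusted p under 0.05 there were 2 of the 10, Sox10 and Cdh19, both lower, where 9.44% of all genes reached it. The lowest adjusted p was that of Sox10, 0.435. The arrays of the genotypes did not overlap for 3 of the 10 genes, against 15.4% of all genes. The median log2 change (Tbx1 null minus wild type) of the 10 was -0.04 and that of all genes -0.01, and 5 of the 10 lay on each side of 0. Tbx1 itself fell from 11.44 ± 0.18 (SD, n = 3) to 9.5 ± 0.12, a log2 change of -1.94 with a limma adjusted p of 0.000684.

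Most of these genes deviated on the same arrays. Wild-type replicate 1 had the highest wild-type level of 9 of the 10 genes, and wild-type replicate 2 had the lowest level of the same 9. Over all genes replicate 1 was highest for 36.7% and replicate 2 lowest for 30.4%. For 4 of the 10 genes (40%) replicate 1 stood more than 0.5 above the mean of the other 2 wild-type arrays on the log2 scale, while 59 of all 19938 genes (0.296%) did. The 10 were chosen with earlier results of these data known, so this contrast is a description only. Ranked over all genes by this difference Sox10 came first, Cdh19 was at rank 5, Fabp7 at rank 13, Erbb3 at rank 35 and Ednrb at rank 82. The replicates are named by number only, and no batch, scan or litter is given in the labels.

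**Figure D1:**
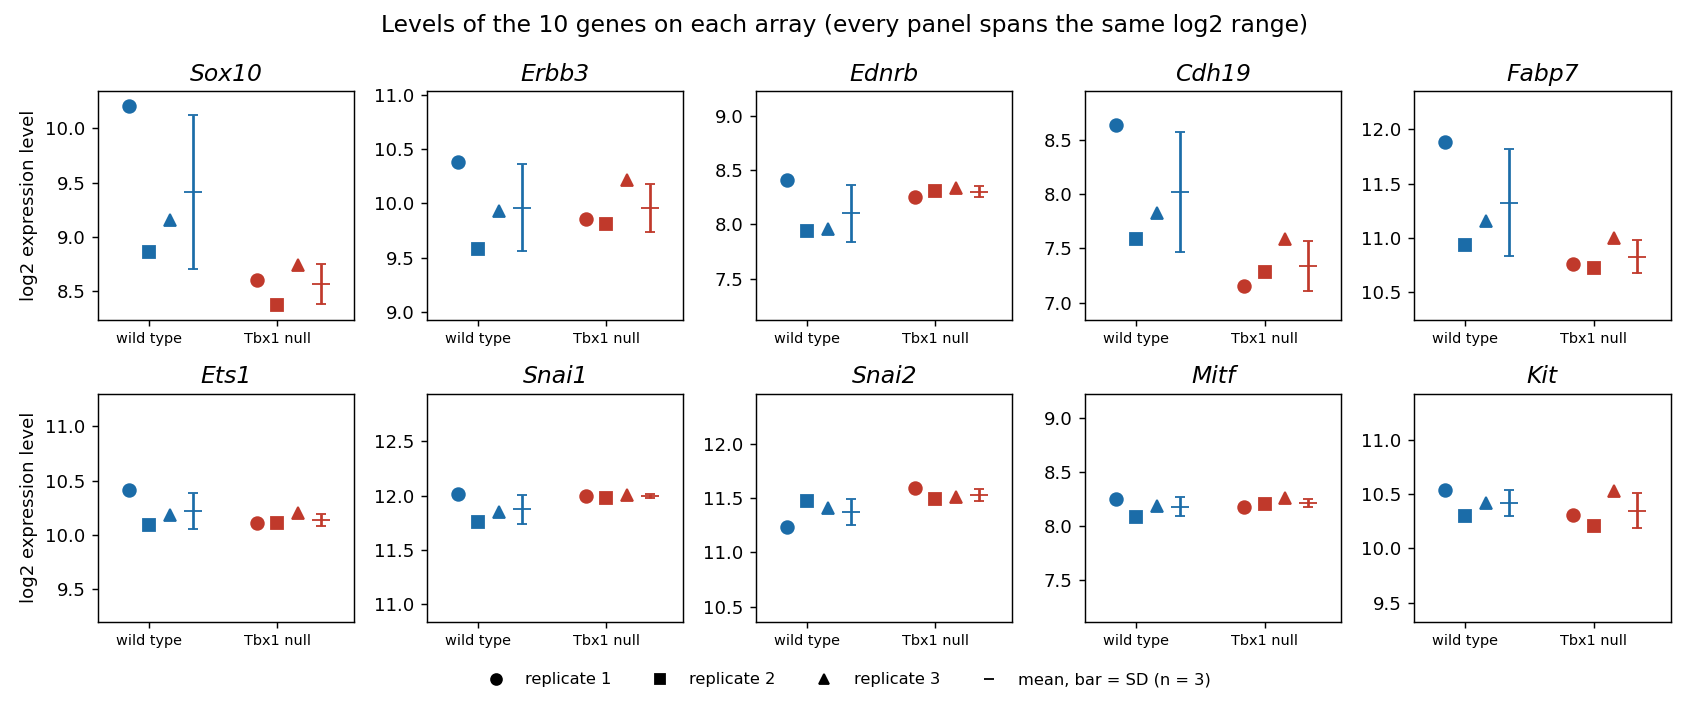
Log2 expression level (y axis) of each of the 10 genes on the 3 wild-type (blue) and 3 Tbx1 null (red) arrays (x axis), with the replicate number as the symbol and the mean with its SD beside the points. Wild-type replicate 1 (circle) lay well above the other arrays for Sox10, Cdh19 and Fabp7, at 10.21, 8.64 and 11.88, and was the lowest array for Snai2, at 11.23.

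Sox10 encodes the SRY-box transcription factor that marks migrating crest and is required for glial and pigment cells. Its level (probe set 10430458, Entrez gene 20665) was 10.21, 8.86 and 9.16 on wild-type replicates 1, 2 and 3 and 8.60, 8.37 and 8.74 on Tbx1 null replicates 1, 2 and 3. Every Tbx1 null array was below every wild-type array, a pattern seen in 7.06% of all genes. The mean was 9.41 ± 0.71 (SD, n = 3) in wild type and 8.57 ± 0.19 in Tbx1 null, which is 1.80-fold lower, or -0.85 on the log2 scale with a 95% interval from -1.56 to -0.13. The SE was 0.31, and the limma adjusted p was 0.435 (unadjusted p = 0.0264). Without wild-type replicate 1 the change was -0.44 with an SE of 0.13, and the limma adjusted p was 0.356. Leaving out another array gave changes between -0.74 and -1.12.

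The wild-type SD of Sox10 was the sixth largest of all 19938 genes (rank 6). Wild-type replicate 1 was 1.20 above the mean of replicates 2 and 3 on the log2 scale, which is 2.3-fold. Among the Tbx1 null arrays the spread was smaller, 0.37 from lowest to highest against 1.35 in wild type. It was still large beside other genes: the Tbx1 null SD of Sox10 was at rank 554.

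Among the receptors, Erbb3 had the same mean, 9.96, in both genotypes. It encodes the neuregulin receptor through which axons support glial precursors. Its level was 10.38, 9.58 and 9.93 on wild-type replicates 1 to 3 and 9.86, 9.81 and 10.21 on Tbx1 null replicates 1 to 3. The ranges overlapped nearly in full: the lowest and the highest array were both wild type. The log2 change was 0.00 with a 95% interval from -0.45 to 0.45, and the limma adjusted p was 0.9996. Its sign turned with the array left out, from -0.19 (wild-type replicate 2 omitted) to 0.21 (replicate 1 omitted), and it was -0.02 after another quantile normalisation.

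Ednrb encodes the endothelin receptor of melanocyte and enteric crest precursors. Levels were 8.41, 7.94 and 7.96 on the wild-type arrays and 8.25, 8.31 and 8.34 on the Tbx1 null arrays. Wild-type replicates 2 and 3 were below all Tbx1 null arrays, and replicate 1 was above them. The log2 change was 0.20 (SE 0.12, limma adjusted p = 0.674). Without wild-type replicate 1 it was 0.35 with an SE of 0.05 (unadjusted p = 0.000278, limma adjusted p = 0.1), the lowest adjusted p of the 10 genes in that fit.

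Kit encodes the stem cell factor receptor of pigment precursors, also carried by blood and germ cell precursors. It was at 10.54, 10.30 and 10.42 in wild type and at 10.31, 10.21 and 10.53 in Tbx1 null. The arrays interleaved, and the log2 change was -0.07 (95% interval -0.29 to 0.14, limma adjusted p = 0.876). It ranged from -0.003 without Tbx1 null replicate 2 to -0.16 without Tbx1 null replicate 3, and omitting wild-type replicates 1 and 2 in turn gave -0.012 and -0.133. Kit was the only one of the 10 that stood further apart on Tbx1 null replicate 3 (0.27 above the other 2 of its genotype) than on wild-type replicate 1 (0.18 above).

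Cdh19 and Fabp7 had the same order of wild-type arrays as Sox10. Cdh19 encodes a cadherin of crest cells and Schwann cell precursors. Its level was 8.64, 7.59 and 7.83 on wild-type replicates 1 to 3 and 7.15, 7.28 and 7.59 on Tbx1 null replicates 1 to 3. The genotypes did not overlap, though the gap between wild-type replicate 2 and Tbx1 null replicate 3 was under 0.01. The log2 change was -0.68 (95% interval -1.27 to -0.10), 1.61-fold, with a limma adjusted p of 0.438. Without wild-type replicate 1 it was -0.37 (SE 0.14).

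Fabp7 encodes the brain fatty acid-binding protein, a marker of radial glia and of crest-derived glial precursors. On the wild-type arrays it was at 11.88, 10.94 and 11.16, and on the Tbx1 null arrays at 10.76, 10.72 and 11. Tbx1 null replicate 3 lay above wild-type replicate 2, so the genotypes overlapped. Its log2 change was -0.50 (95% interval -1.0 to 0.003, limma adjusted p = 0.531), or 1.41-fold. Leaving out wild-type replicate 1 gave -0.23, and leaving out replicate 2 gave -0.69.

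Ets1, Snai1 and Snai2 encode factors of crest delamination and migration, and all are also known from other cells: Ets1 from endothelium, Snai1 and Snai2 from mesenchyme. Ets1 was at 10.41, 10.09 and 10.18 in wild type and at 10.11, 10.11 and 10.20 in Tbx1 null. The arrays overlapped, with a log2 change of -0.08 (limma adjusted p = 0.820) that became 0.01 without wild-type replicate 1.

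Snai1, a zinc-finger repressor of epithelial genes, was at 12.02, 11.76 and 11.85 in wild type and at 12.00, 11.98 and 12.01 in Tbx1 null. The 3 Tbx1 null arrays lay within 0.03 of each other, and wild-type replicate 1 lay above them all. Its log2 change was 0.12 (SE 0.07, limma adjusted p = 0.640), and 0.20 without wild-type replicate 1 (limma adjusted p = 0.311).

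Snai2, the related repressor also called Slug, ran the other way. It was at 11.23, 11.47 and 11.41 in wild type and at 11.59, 11.49 and 11.51 in Tbx1 null. Every Tbx1 null array was above every wild-type array, as in 8.36% of all genes, and wild-type replicate 1 was the lowest of the 6 arrays. Its log2 change was 0.16 (95% interval -0.0009 to 0.32, limma adjusted p = 0.531), and 0.09 without wild-type replicate 1.

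Mitf encodes the main transcription factor of pigment cells. Its brighter probe set was at 8.25, 8.08 and 8.19 in wild type and at 8.18, 8.20 and 8.26 in Tbx1 null. This was the narrowest spread of the 10 genes, 0.17 over all 6 arrays, and the log2 change was 0.03 (95% interval -0.09 to 0.16, limma adjusted p = 0.903). The dimmer probe set ranged from 4.18 to 4.42. No control probes were given, so how far either stood above background could not be judged.

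**Figure D2:**
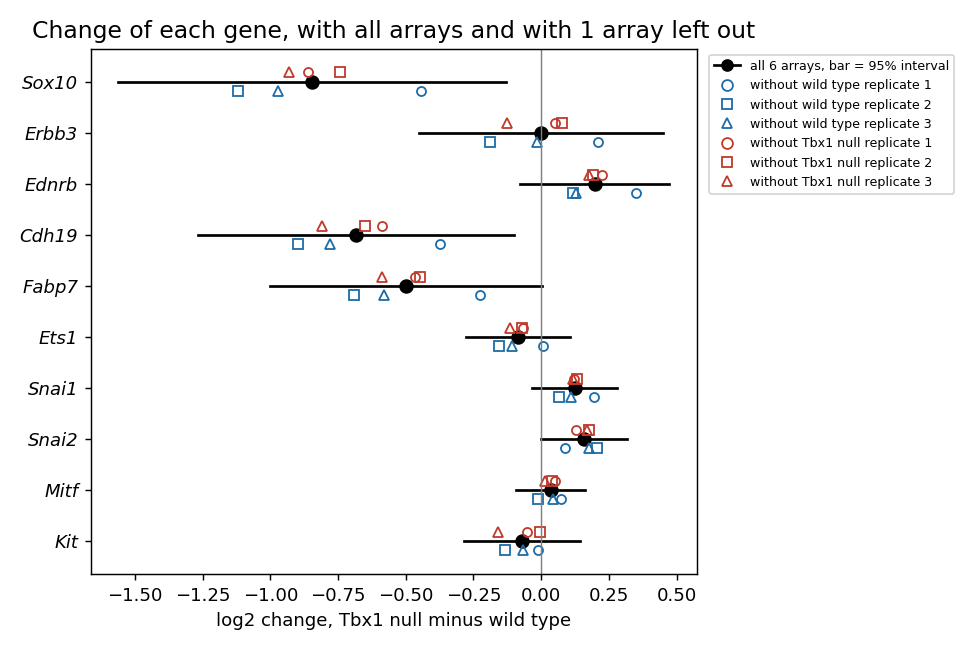
Log2 change, Tbx1 null minus wild type (x axis), of each of the 10 genes (y axis), from limma on all 6 arrays (black, bar = 95% interval) and with 1 array left out (open symbols, coloured by the genotype of that array). Leaving out wild-type replicate 1 (open blue circle) moved the changes of Sox10, Cdh19 and Fabp7 to -0.44, -0.37 and -0.23.

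Within each genotype the genes shared an order of arrays. In wild type, replicate 1 was above replicate 3 and replicate 3 above replicate 2 for all but Snai2. In Tbx1 null, replicate 3 was the highest array for the same 9 genes, while it was highest for 38.5% of all genes. Its distance from the other 2 null arrays was smaller: 0.38 for Erbb3 and Cdh19, 0.27 for Kit, 0.26 for Fabp7 and 0.25 for Sox10. In full, 5 genes (Sox10, Erbb3, Fabp7, Snai1 and Kit) had the order replicate 1, 3, 2 in wild type and 3, 1, 2 in Tbx1 null, an order held by 4.96% of all genes. Another 4 (Ednrb, Cdh19, Ets1 and Mitf) had 1, 3, 2 and 3, 2, 1, as did 4.32% of all genes. Since 9 of the 10 genes deviate on the same arrays, they are not 9 separate observations of those arrays.

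**Figure D3:**
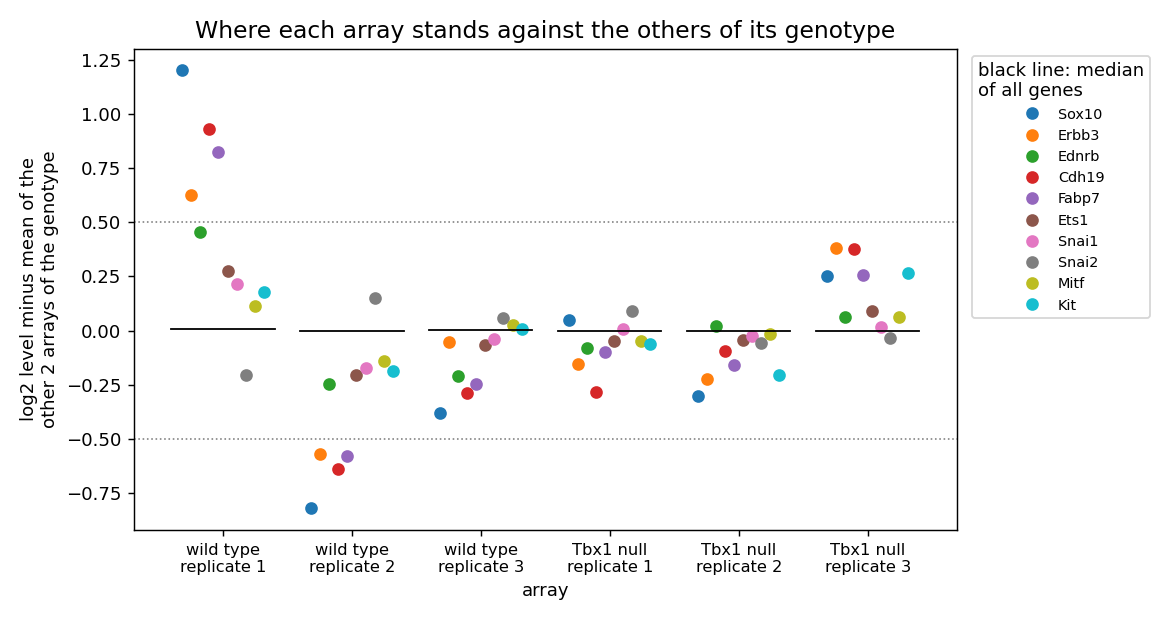
For each array (x axis), the log2 level of each of the 10 genes minus its mean on the other 2 arrays of the same genotype (y axis); black lines are medians of all genes, dotted lines mark 0.5 either way, and the 3 values of a gene within a genotype sum to 0. On wild-type replicate 1 the 10 genes ranged from -0.21 (Snai2) to 1.20 (Sox10), and on Tbx1 null replicate 3 from -0.03 to 0.38.

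The arrays also differed in other markers, whose part in these values was not tested. Y-linked genes (mean log2 level of Eif2s3y, Kdm5d and Uty) stood at 8.57, 9.07 and 9.85 on wild-type replicates 1 to 3 and at 9.58, 9.28 and 5.73 on Tbx1 null replicates 1 to 3. The Y-linked level of wild-type replicate 1 was the lowest in wild type, and that of Tbx1 null replicate 3 the lowest of all. The mean over 16 markers of arch mesenchyme was lower on wild-type replicate 1, at 11.06. It was 11.28 and 11.33 on replicates 2 and 3 and 11.33 to 11.52 in Tbx1 null. Of these 16, 4 were more than 0.5 lower there than the mean of the other 2 wild-type arrays, where 0.532% of all genes were. These were Twist2, Barx1, Foxd1 and Hand2, with differences of -0.931, -0.855, -0.838 and -0.616. The median difference of the 16 was -0.105, and Prrx2 was at -0.002. Alx4, Dlx5 and Twist1 were higher there, at 0.16, 0.091 and 0.045. Markers of cranial ganglion neurons were higher there, with a mean over 17 genes of 7.64 against 7.44 and 7.46, and 7.40 to 7.49 in Tbx1 null. Neural tube genes differed less, with a mean over 13 genes of 8.83 on wild-type replicate 1 and 8.75 to 8.79 on the other 5 arrays. The endothelial mean over 16 genes was 10.23 to 10.28 in wild type and 10.11 to 10.26 in Tbx1 null, and the epithelial mean over 10 genes 10.89 to 10.99 and 11.01 to 11.14. Blood cell genes had means over 11 genes of 8.83 to 8.88 and 8.62 to 8.75. The lists also differed between the genotypes, and their part in the changes of the 10 genes was not tested. Of the arch mesenchyme genes 1 of 16 rose, where 0.0853% of all genes did. It was the homeobox factor gene Msx2 (log2 change 0.39, limma adjusted p = 0.0422), and 0 of 16 passed with any 1 array left out. In all 14 of the 16 had a change above 0, as had 9265 of all 19938 genes. An unadjusted limma p under 0.05 was reached by 7, all higher (5.5% of all genes). The median was 0.21, or 0.129 without wild-type replicate 1. Of 11 blood genes 0 passed, 7 were lower at an unadjusted limma p under 0.05 (3.94% of all genes), and for 7 every Tbx1 null array was below every wild-type array (7.06% of all genes). The lowest p among them was that of Klf1, the erythroid factor gene, with a log2 change of -0.37 (limma adjusted p = 0.0651).

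Of the markers of the labelled tissue, the mandibular factor Hand2 lay between 10.45 and 11.50 over all arrays and Barx1 between 11.90 and 12.77. Both were lowest on wild-type replicate 1, and both were picked after their values were seen. The Dlx genes of the same list differed less there. Dlx1, Dlx2, Dlx5 and Dlx6 were at -0.132, -0.026, 0.091 and -0.047 from the mean of the other 2 wild-type arrays. Without control probes the height of these genes above background could not be judged, and whether every array held the same tissue was not tested.

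**Figure D4:**
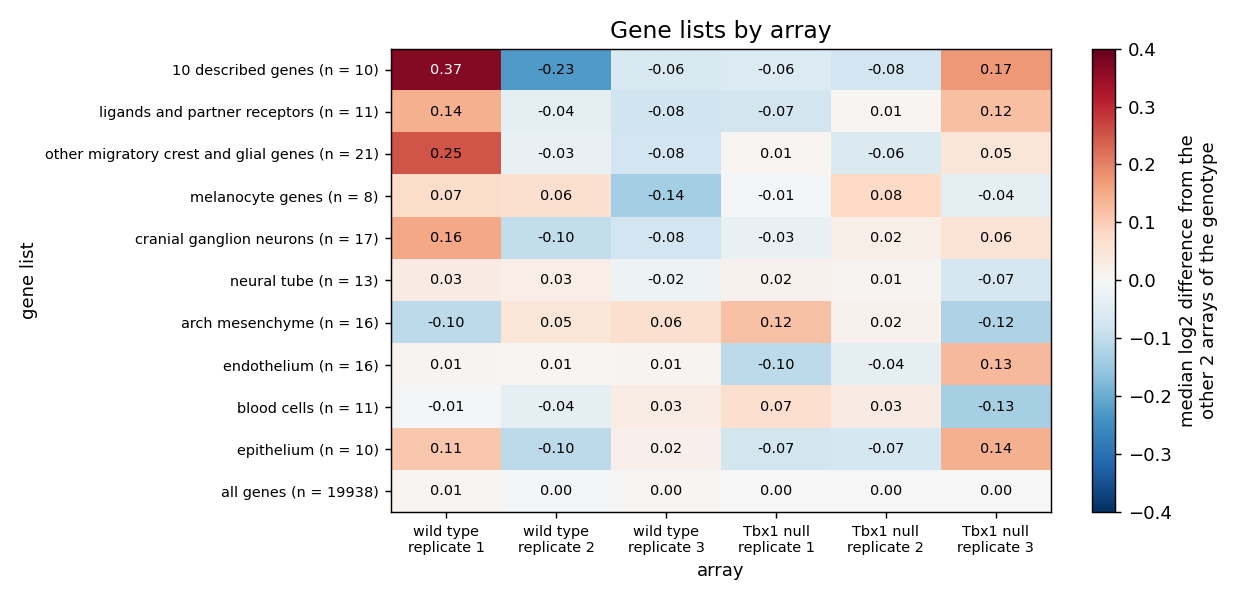
Median difference (colour and printed value, log2) of each gene list (y axis) on each array (x axis) from the mean of the other 2 arrays of its genotype. The 10 genes stood at 0.37 on wild-type replicate 1 and at 0.17 on Tbx1 null replicate 3, other crest and glial genes at 0.25 and 0.05, and arch mesenchyme at -0.10 and -0.12.

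The genes with the profile nearest to that of Sox10 were found by the mean absolute difference of log2 values over the 6 arrays, after each gene was centred on its own mean. The nearest 8 of all genes were Ccl6 (0.09), Ina (0.10), Plcg2 (0.13), Etv2 (0.14), Cdh19 (0.14), Rarres1 (0.14), Mamdc2 (0.15) and Fabp7 (0.17). So 2 of the 8 were among the 10 markers. Ina encodes a neuronal intermediate filament, Ccl6 a chemokine and Etv2 the early endothelial ETS factor. Etv2 was at 10.21, 9.30 and 9.46 in wild type and 8.93, 8.92 and 9.20 in Tbx1 null. Over the 16 endothelial genes, differences of wild-type replicate 1 from the other 2 wild-type arrays ran from -0.28 (Pecam1) to 0.83 (Etv2), with a median of 0.011. The nearest to Kit were Med9 (0.02), Pcyox1l (0.03) and Olfr1022 (0.03). Their changes, like that of Kit, were under 0.1, which follows from how these genes were picked. Of the genes that stood out most on wild-type replicate 1, those ranked 2 to 4 after Sox10 were Ina, Ccl6 and Foxi3, at 1.09, 1.06 and 0.96 above the other 2 arrays (named after their values were seen).

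Ligands and partners of the receptors were read next. Of 11 measured genes 0 passed limma's adjusted threshold. An unadjusted p under 0.05 was reached by 2, both lower in Tbx1 null (over all genes 5.5% were higher and 3.94% lower), and the median log2 change was -0.02. Nrg1 encodes neuregulin 1, the ligand of Erbb3. It was at 8.69, 8.10 and 8.08 on the wild-type arrays and at 7.60, 7.62 and 7.82 on the Tbx1 null arrays. The genotypes did not overlap, and the log2 change was -0.61 (95% interval -0.98 to -0.25, limma adjusted p = 0.255). Wild-type replicate 1 was again the highest, and without it the change was -0.41 (limma adjusted p = 0.170). Erbb2, the co-receptor of Erbb3, had a log2 change of 0.08 (SE 0.07), Erbb4 of 0.07, and the other neuregulins Nrg2, Nrg3 and Nrg4 of -0.02, 0.01 and 0.07, none past the threshold.

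Edn3 encodes endothelin 3, the ligand of Ednrb. It was at 9.63, 9.74 and 9.78 in wild type and at 9.51, 9.47 and 9.36 in Tbx1 null. All Tbx1 null arrays were below all wild-type arrays, and wild-type replicate 1 was the lowest of its genotype here, unlike for Sox10. The log2 change was -0.27 (SE 0.06, limma adjusted p = 0.181), and between -0.22 and -0.31 with an array left out. Edn3 passed only with array weights (limma adjusted p = 0.0361), a fit in which 334 of all genes passed. Edn1 (endothelin 1) had a change of 0.03, Edn2 of -0.04 and Ece1, the enzyme that activates endothelins, of -0.02. Kitl, the ligand of Kit, was at 10, 9.5 and 9.69 in wild type and at 9.34, 9.49 and 9.77 in Tbx1 null. Its arrays overlapped, with a log2 change of -0.20 (SE 0.14, limma adjusted p = 0.749).

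**Figure D5:**
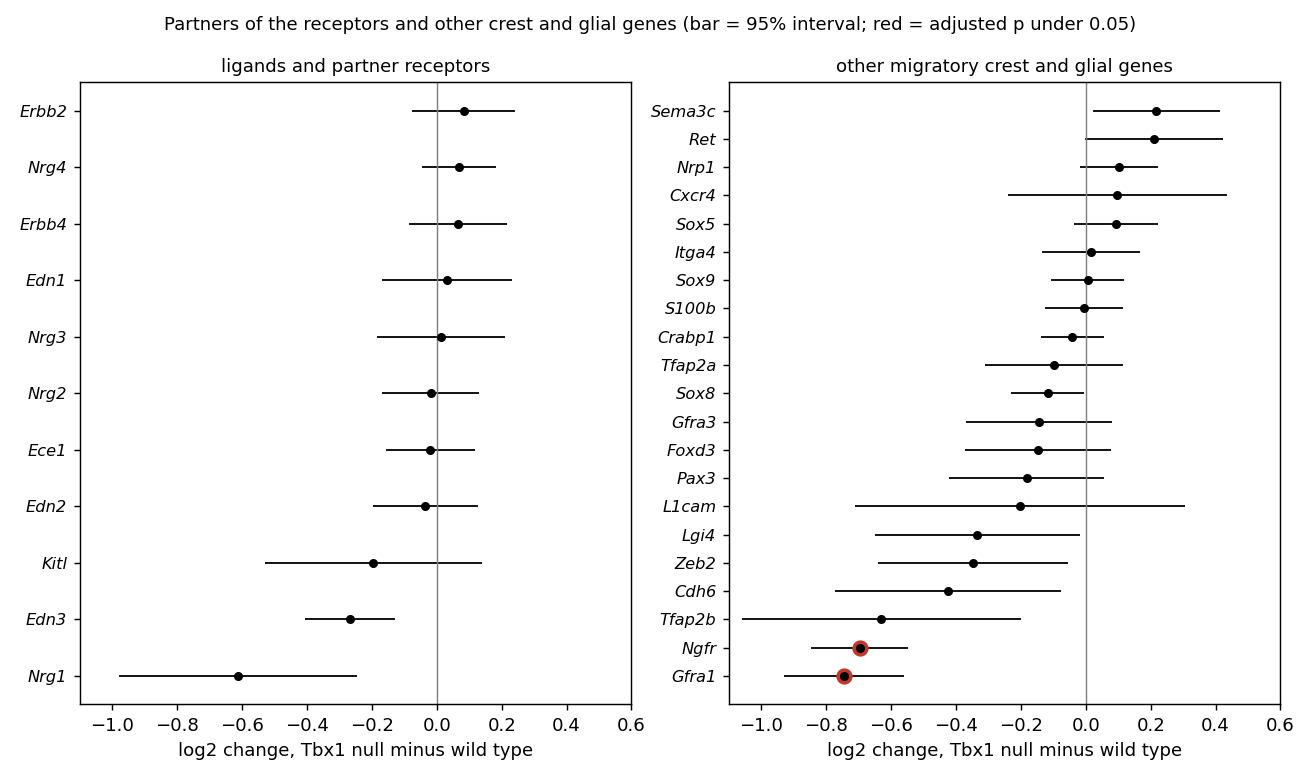
Log2 change with its 95% interval (x axis) of each ligand or partner receptor (left) and each other crest or glial gene (right, y axes); red marks a limma adjusted p under 0.05. Ngfr at -0.70 and Gfra1 at -0.75 were the only ones marked; Nrg1 at -0.61 and Tfap2b at -0.63 had wider intervals.

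Of 21 other migratory crest and glial genes 0 rose and 2 fell, Ngfr and Gfra1, against 0.0752% of all genes that fell. The list was chosen with earlier results of these data known, so its shares do not show an enrichment. Of these 21, 14 had a change below 0, as had 10673 of all 19938 genes, and the median log2 change was -0.12. Before adjustment 8 had a limma p under 0.05, of which Sema3c was higher and the other 7 were lower, where 9.44% of all genes reached it and 3.94% were lower. Ngfr encodes the p75 neurotrophin receptor. It was at 9.31, 9.19 and 9.09 in wild type and at 8.53, 8.44 and 8.53 in Tbx1 null, a log2 change of -0.70 (SE 0.06, limma adjusted p = 0.0142). Its wild-type range was 0.22, against 1.35 for Sox10, and leaving out wild-type replicate 1 gave -0.64 (limma adjusted p = 0.0407). Leaving out wild-type replicate 3 gave a limma adjusted p of 0.0344, and leaving out any other array 0.0601 to 0.133. The call was also lost with the replicate block (limma adjusted p = 0.0663) and with every probe set in the fit (0.0718).

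Gfra1 encodes the co-receptor through which Ret binds the neurotrophic factor GDNF. It was at 9.30, 9.46 and 9.34 in wild type and at 8.72, 8.68 and 8.46 in Tbx1 null, a log2 change of -0.75 (SE 0.08, limma adjusted p = 0.0294). Wild-type replicate 1 was its lowest wild-type array. It passed without Tbx1 null replicate 3 (limma adjusted p = 0.0469) and not without any other array (0.071 to 0.145), nor with the replicate block (0.0663) or every probe set in the fit (0.106). Without wild-type replicate 1 the median of the 21 genes was -0.025 and 13 lay below 0. The median was -0.15 without wild-type replicate 2.

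Tfap2b, an AP-2 factor of crest cells, was at 10.69, 9.96 and 10.27 in wild type and at 9.70, 9.43 and 9.90 in Tbx1 null, with a log2 change of -0.63 (SE 0.18, limma adjusted p = 0.327). Its order of arrays was that of Sox10. Cdh6, a cadherin of emerging crest, had a log2 change of -0.43 (SE 0.15, limma adjusted p = 0.423), with wild-type replicate 1 highest at 11.59 and the others between 10.73 and 11.18. L1cam, an adhesion molecule of axons and glial precursors, was at 8.95 on wild-type replicate 1 and between 8.03 and 8.40 on the other 5 arrays. Foxd3, a factor of early crest, had a change of -0.15 (limma adjusted p = 0.706), and Sox9, which early crest and cartilage precursors share, of 0.01 (95% interval -0.11 to 0.12).

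Pigment cell genes gave no call: 0 of 8 passed by limma, 2 had an unadjusted p under 0.05 (Gpr143 and Tyrp1, both lower, as were 3.94% of all genes), and the median log2 change was -0.03. The lowest p was that of Gpr143, a receptor of pigment organelles, with a log2 change of -0.14 (limma adjusted p = 0.367). Tyrp1, Dct and Pmel, genes of melanin formation, had changes of -0.12, -0.12 and 0.03. The mean of this list was 6.60, 6.59 and 6.48 in wild type and 6.48 to 6.55 in Tbx1 null. The array medians over all probe sets were higher, at 7.98 to 8.04. Without control probes it could not be judged whether these genes were detected, so the lack of calls says little about pigment precursors. The median difference of wild-type replicate 1 from the other 2 wild-type arrays was 0.072.

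Upstream sequence was searched for the members with a listed promoter. The RefSeq promoter table (GRCm38.p6) held 5 of the 10 genes (Ednrb, Fabp7, Kit, Mitf and Snai1), with 8 windows of 250 bases before to 50 after a start. Each window was searched on both strands for ACAAAG and AACAAT (cores bound by SOX factors), CAGGTG (an E-box bound by SNAI factors), TCATGTG (a box bound by MITF) and CCGGAAGT (an ETS site). These letters occurred in 18.7%, 10.7%, 20.2%, 3.77% and 3.89% of 32851 windows of this length. The 8 windows held 3 matches, 1 CAGGTG in a window of Mitf and 2 in that of Snai1, and none of them overlapped. The 250 bases before the start are given 5′ to 3′ for Fabp7, among the 8 genes with the profile nearest to Sox10, for Ednrb, whose mean was not lower in Tbx1 null, and for Snai1, with matches in capitals.
Fabp7 (chr10:57784673-57784922, + strand): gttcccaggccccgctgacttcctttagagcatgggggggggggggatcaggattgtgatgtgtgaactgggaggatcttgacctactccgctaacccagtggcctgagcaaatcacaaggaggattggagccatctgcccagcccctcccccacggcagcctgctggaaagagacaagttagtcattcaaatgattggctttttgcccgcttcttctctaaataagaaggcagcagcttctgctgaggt
Ednrb (chr14:103843702-103843951, - strand): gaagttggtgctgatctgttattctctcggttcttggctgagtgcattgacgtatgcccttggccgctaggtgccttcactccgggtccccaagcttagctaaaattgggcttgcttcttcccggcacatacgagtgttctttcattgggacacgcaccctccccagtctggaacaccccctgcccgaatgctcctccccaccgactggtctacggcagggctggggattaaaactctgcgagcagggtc
Snai1 (chr2:167537945-167538194, + strand): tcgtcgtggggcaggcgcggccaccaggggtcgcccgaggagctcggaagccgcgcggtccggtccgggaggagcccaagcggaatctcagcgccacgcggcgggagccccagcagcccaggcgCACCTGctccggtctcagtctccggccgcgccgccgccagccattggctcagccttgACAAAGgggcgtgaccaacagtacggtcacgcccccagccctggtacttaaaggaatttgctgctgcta
In Snai1 the capitals mark CACCTG, the reverse complement of CAGGTG, from position -126 relative to the start, and ACAAAG from -69. The windows of Fabp7 and Ednrb held none of these letters. A match of letters does not show that a factor binds there.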

How the data were processed

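RNA of 6 arrays was analysed. The authors deposited log2 values of probe sets, and the submitters' processing notes name RMA and Affymetrix Expression Console 1.1. RMA equalises the distributions of the arrays, which hides a shift common to most genes. Genome build and summary level: not given in the sources used here. Of 35556 probe sets, 21789 had 1 gene symbol in the platform annotation. For a gene with several, the probe set of highest mean over the 6 arrays was taken, giving 19938 genes.

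Tbx1 null and wild type were tested by limma 3.58.1 under R 4.3.3 (lmFit, eBayes, two-sided, no covariate, 6 arrays), with Benjamini-Hochberg adjustment over all genes and a threshold of 0.05. Levels are means ± SD over 3 arrays. Precision is limited by the number of arrays, and the SE of a log2 change had a median of 0.0579 and a 95th percentile of 0.104. Sox10, Cdh19, Fabp7, Erbb3 and Ednrb had SEs above that percentile (0.31, 0.25, 0.22, 0.19 and 0.12), so the recovery given next overstates what could be found for them. Whether every replicate is a separate pool is not stated. Y-linked levels differed between arrays of a genotype (5.73 to 9.58 in Tbx1 null), so these were not all repeat arrays of 1 pool, and the p-values reflect how these arrays vary. Tested on simulated data for Tbx1 null against wild type (19938 genes), 23 of 50 genes with a 1.25-fold change were found, 44 of 50 at 1.5-fold and 50 of 50 at 2-fold. That simulated fit made 175 calls, against 32 in the data, where the smallest absolute log2 change called was 0.365. Its recovery can therefore overstate what could be found for other genes too.

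The members and gene lists were chosen with earlier results of these data known. Genes were named by rule: all members, Tbx1, all measured ligands and partners, and up to 4 genes of lowest p from each other list. By the same rule the genes with profiles most like Sox10 (8) and Kit (3) were named. L1cam, Foxd3, Sox9, Sema3c, Foxi3, Twist2, Barx1, Foxd1, Hand2, Pecam1, Alx4, Dlx1, Dlx2, Dlx5, Dlx6 and Twist1 fall outside this rule. They were chosen after their values were seen. Alternatives were a replicate block, leaving out each array, 2 normalisations, 2 filters on level, 2 variance models, the mean of probe sets and every probe set.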

Additional observations from a re-analysis of the deposited data

How the results depend on the processing

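In all 16 fits 0 of the 10 genes passed an adjusted p of 0.05. The count of all genes that passed, 32, became 6 with the replicate block, 96 with an intensity trend and robust estimation, 334 with array weights, 4 with every probe set in the fit and 3 to 20 with 1 array left out. The count of the 10 genes at an unadjusted limma p under 0.05, 2, became 3 with the replicate block, 1 with trend and robust estimation (Snai2), 4 with array weights (Sox10, Ednrb, Cdh19 and Snai1) and 0 to 4 with 1 array left out. Leaving out null replicate 2 gave 0, null replicate 1 gave 1, and either of wild-type replicates 1 and 2 gave 4; the cause was not tested.

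The log2 change of Erbb3 was near 0 and turned to -0.019 after quantile normalisation again and to -0.0139 after median centring, with a range of -0.19 to 0.21 when 1 array was left out. That of Ets1 ranged from -0.15 to 0.007 and that of Mitf from -0.0123 to 0.0729 with 1 array left out, and Mitf was at -0.0161 with the mean of its probe sets. The other 7 genes kept their sign in every fit that held them. A filter at the median level removed Ednrb, Cdh19 and Mitf and left 7 of the 10 genes.

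The replicate numbers are shared by the genotypes, and deviations of same-numbered arrays correlated at -0.045, 0.26 and 0.149 across genes. The same-numbered null array was the best match of wild-type replicate 2 (others 0.25 and -0.366) and replicate 3 (others -0.141 and -0.061). Wild-type replicate 1 correlated best with Tbx1 null replicate 3 (0.122). The labels do not say whether the numbers mark pairs, and the main fit took the arrays as unpaired. With the replicate block the SE of Sox10 went from 0.308 to 0.23. Among the 10 genes only the SE of Snai2 rose, from 0.068 to 0.073.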
